A study of Mus musculus with 12 samples.

Results

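Fxyd2, Tmem176a and Tmem176b are 3 of the 23997 genes with a value in each of 12 RNA-seq libraries of mouse bone marrow-derived macrophages (BMDMs). They were chosen by name as ion transport genes with strong differences between genotypes, so the differences between Pim1-/- and WT cells are what picked them and are given here as a description with no test. The response to lipopolysaccharide (LPS), a bacterial product sensed by TLR4, was not part of the choice and was tested.

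The cells were grown from the marrow of male C57BL/6 mice aged 8 to 10 weeks, with recombinant human M-CSF at 10 ng/ml for 7 days. There were 4 groups of 3 libraries each, namely untreated WT, untreated Pim1-/-, WT given LPS at 100 ng/ml for 4 h, and Pim1-/- given the same LPS treatment. The Pim1-/- mice lack Pim1, a serine/threonine kinase, in every tissue through a CRISPR-Cas9 deletion of exons I to V, so the deletion was present while the marrow cells became macrophages as well as during treatment. It is not stated whether the 3 libraries of a group came from separate mice or cultures, and p-values measure only the spread between these libraries, which may be technical.

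Fxyd2 encodes the gamma subunit of the Na,K-ATPase, a small single-span membrane protein of the FXYD family that binds the pump and changes its affinity for ions; it is best known from the kidney tubule. Tmem176a and Tmem176b encode related proteins with several membrane spans that sit in intracellular membranes of myeloid cells and have been described as cation channels. Both are abundant in immature dendritic cells and macrophages, and their genes lie beside each other and are usually expressed together.

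The Tmem176 genes lie head to head on chromosome 6 of GRCm38 in the GENCODE M21 annotation. Tmem176b (ENSMUSG00000029810.15) covers chr6:48833818-48841496 on the minus strand and Tmem176a (ENSMUSG00000023367.14) covers chr6:48840919-48847071 on the plus strand, so that their spans overlap by 578 nt. Their exons share 81 nt on opposite strands, which is 2.13% of the exonic length of Tmem176a and 3.42% of that of Tmem176b. The libraries were made with a stranded kit, but whether strand was used in counting is not given in the sources used here, and reads from those 81 nt may not be told apart. Fxyd2 (ENSMUSG00000059412.7) covers chr9:45399669-45410278 on the plus strand, with Fxyd6, another gene of the family, ending 3509 nt before it.

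Because the Tmem176 genes moved together, their promoter windows are shown, each running from 250 bases before to 50 bases after a RefSeq start site in GRCm38.p6. RefSeq lists 2 start sites for Tmem176a and 3 for Tmem176b, and the first of each is shown. These start sites, at position 48841483 for Tmem176a and 48841137 for Tmem176b, are 346 nt apart and point away from each other. The windows below overlap by 155 nt, at chr6:48841233-48841387, and these shared bases are in capitals, read from the opposite strand in the second sequence.
Tmem176a, chr6:48841233-48841532, plus strand: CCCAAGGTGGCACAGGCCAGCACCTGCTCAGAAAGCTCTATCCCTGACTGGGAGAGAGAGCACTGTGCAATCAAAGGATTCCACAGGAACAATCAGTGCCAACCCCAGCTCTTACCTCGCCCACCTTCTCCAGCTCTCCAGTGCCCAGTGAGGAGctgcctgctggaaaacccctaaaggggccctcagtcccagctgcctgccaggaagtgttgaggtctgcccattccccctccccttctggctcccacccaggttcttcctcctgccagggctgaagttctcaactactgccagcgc
Tmem176b, chr6:48841088-48841387, minus strand: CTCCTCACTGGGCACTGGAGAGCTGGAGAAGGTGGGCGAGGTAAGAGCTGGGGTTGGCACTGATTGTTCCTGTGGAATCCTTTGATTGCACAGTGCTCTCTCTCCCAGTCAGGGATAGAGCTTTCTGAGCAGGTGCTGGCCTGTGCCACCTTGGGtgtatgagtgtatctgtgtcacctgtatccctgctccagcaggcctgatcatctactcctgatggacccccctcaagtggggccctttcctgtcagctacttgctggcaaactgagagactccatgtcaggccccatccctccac

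The letters of 9 motifs were searched on both strands of these windows. AGGAAGT, a core motif of the myeloid factor PU.1, stood once in the Tmem176a window, starting at its base 205 and outside the shared bases, and was not in the Tmem176b window shown, although the window of another Tmem176b start site holds the same site. It is in 9.35% of the 32851 promoter windows of the same length. The letters of the interferon-stimulated response element (in 3.44% of all windows), of an NF-kappaB site (0.411%), an AP-1 site (TGANTCA, 7.81%), a C/EBP site (TTGCNNAAT, 2.4%), a STAT site (TTCNNNGAA, 8.3%), a CCAAT box (CCAAT, 37.4%), a TATA box (TATAAA, 13.6%) and an E-box (CACGTG, 7.15%) were in neither window.

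Values are FPKM, fragments divided by transcript length in kilobases and by the depth of the library, which allow levels of different genes to be compared per length. Tests covered the 10581 genes that reached 1 FPKM in 3 or more libraries, among them all 3 members. The deposited columns summed to 452511 to 489710 FPKM in untreated and 713307 to 849323 FPKM in LPS-treated libraries, and the median log2 fold change of all genes after LPS was 0.0015 in WT and -0.013 in Pim1-/- cells. A response to LPS is therefore relative to the typical gene. When each library was instead scaled to the same sum, as for TPM values, that median became -0.71 and -0.62, and this scaling is given for the members and, among the other genes tested, wherever it changed a call that is described by name. Pim1 itself was at 22.9 ± 1.80 FPKM in untreated WT, 8.74 ± 0.75 in untreated Pim1-/-, 645.4 ± 17.8 in LPS-treated WT and 218.9 ± 15.6 in LPS-treated Pim1-/- libraries (SD, n = 3). Every Pim1-/- library was below every WT library of its treatment, and 38.1% and 33.9% of the WT mean remained. The values are for the whole gene and do not separate the deleted exons from the rest.

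Fxyd2 was abundant in WT macrophages and close to the detection filter without Pim1. In untreated WT libraries it was at 63.5, 58.7 and 63.6 FPKM, above 90.6% of the genes tested. In untreated Pim1-/- libraries it was at 2.65, 1.76 and 2.32 FPKM, above 16.4% of genes. After LPS the WT libraries had 54.2, 49.7 and 50.5 FPKM and the Pim1-/- libraries 2.65, 2.04 and 2.68 FPKM. The lowest WT library thus held 49.7 FPKM and the highest Pim1-/- library 2.68, with no overlap. Groups lay apart in this direction for 44.2% of all genes tested in untreated cells and 41.8% after LPS.

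The mean of Fxyd2 was 62.0 ± 2.80 FPKM in untreated WT and 2.24 ± 0.45 in untreated Pim1-/- cells (SD, n = 3), which is 27.6-fold lower, or 3.62% of WT. After LPS the means were 51.5 ± 2.41 and 2.46 ± 0.36 FPKM, which is 20.9-fold lower, or 4.78% of WT. On the log2(FPKM + 1) scale of the fit the differences were -4.29 untreated and -3.93 after LPS, each with an SE of 0.09, and of the 10581 genes Fxyd2 ranked the lowest in untreated cells and number 3 from the lowest after LPS. The small values of the Pim1-/- libraries rest on an estimated 16.4 to 58.9 fragments per library, depending on the transcript length assumed, against 337.7 to 1353 in WT libraries. Counting alone could give a coefficient of variation of up to 24.7% in the Pim1-/- libraries.

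Tmem176a was 10.4-fold lower in untreated Pim1-/- cells. It stood at 26.7, 29.8 and 32.1 FPKM in the untreated WT libraries and at 2.60, 2.63 and 3.27 FPKM in the untreated Pim1-/- libraries. After LPS it stood at 136.7, 124.5 and 131.4 FPKM in WT and at 12.5, 11.0 and 11.9 FPKM in Pim1-/- libraries, an 11.1-fold lower mean. None of the 4 groups overlapped with another, and the LPS-treated Pim1-/- libraries stayed below the untreated WT ones. The Pim1-/- mean was 9.60% of WT untreated and 9.02% after LPS, with log2 differences of -2.99 and -3.37 (SE 0.07).

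Tmem176b, at the highest level of the 3, followed the same order of groups. The untreated libraries had 77.2, 78.5 and 87.2 FPKM in WT and 8.23, 9.11 and 9.97 FPKM in Pim1-/- cells. The LPS-treated libraries had 244.7, 227.3 and 237.8 FPKM in WT and 24.7, 26.1 and 28.3 FPKM in Pim1-/- cells. The Pim1-/- mean was 8.89-fold lower untreated and 8.97-fold lower after LPS, so 11.2% of the WT level remained without and 11.1% with treatment, with log2 differences of -3.02 and -3.12 (SE 0.07). Again no pair of groups overlapped. From the lowest genotype difference upwards, Tmem176b and Tmem176a ranked 6 and 7 of 10581 genes in untreated cells, and Tmem176a and Tmem176b 4 and 7 after LPS. Since these ranks and folds are of the kind that selected the genes, nothing is read from them. For scale, 3.37% of all genes tested were called lower in untreated Pim1-/- cells and 5.15% after LPS, where a call needs more than a 2-fold difference with p under 0.05 and a Benjamini-Hochberg adjusted p under 0.1.

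**Figure D1:**
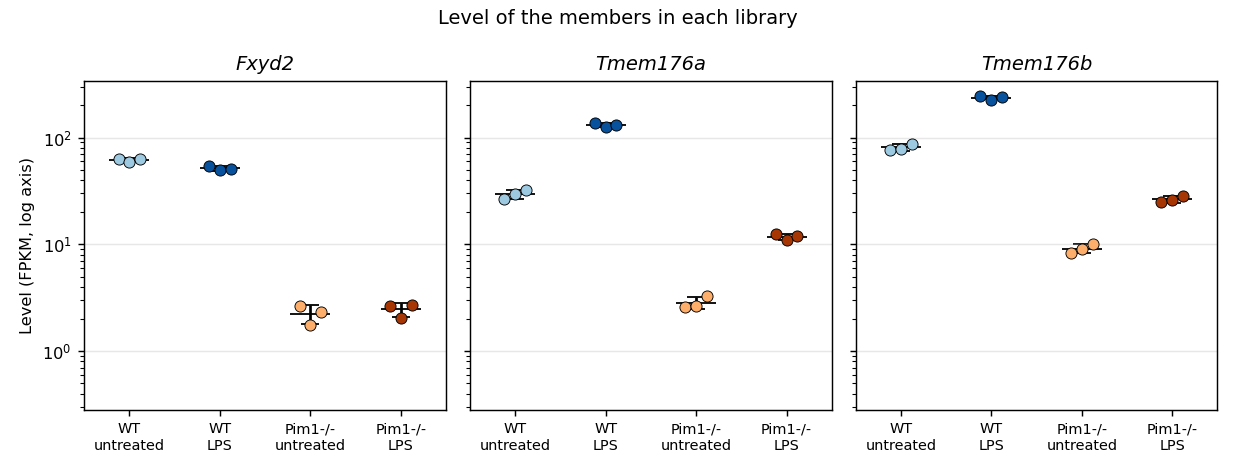
Level of Fxyd2, Tmem176a and Tmem176b in FPKM on a log axis, 1 point per library, with the mean and SD of the 3 libraries of each group in black. The 6 Pim1-/- libraries sit below the 6 WT libraries in each panel, and the LPS-treated libraries sit above the untreated ones of the same genotype for the Tmem176 genes but not for Fxyd2.

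LPS raised both Tmem176 genes in both genotypes. In WT cells Tmem176a rose 4.44-fold (log2 fold change 2.11, SE 0.07, limma with Benjamini-Hochberg adjusted p = 1.6e-13) and Tmem176b rose 2.92-fold (1.54, SE 0.07, adjusted p = 2.2e-12). In Pim1-/- cells Tmem176a rose 4.17-fold (1.74, SE 0.07, adjusted p = 2.8e-12) and Tmem176b 2.90-fold (1.44, SE 0.07, adjusted p = 7.4e-12). For each gene, all 3 LPS-treated libraries of a genotype lay above its 3 untreated ones, as held for 45.5% of all genes tested in WT and 41.7% in Pim1-/- cells. LPS called 20.1% of all genes tested higher in WT and 14.6% in Pim1-/- cells. The log2 response of Tmem176a was above that of 91.6% of genes in WT and 92.1% in Pim1-/- cells, and that of Tmem176b above 87.1% and 90.0%.

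Fxyd2 did not share this response. In WT cells it was at 83.1% of its untreated level after LPS, a small decrease (log2 fold change -0.26, SE 0.09, adjusted p = 0.013) that passed the limits on p, as 44.6% of all genes did in this direction, but not the 2-fold limit. The 3 LPS-treated WT libraries were all below the 3 untreated ones, as held for 44.9% of all genes tested. In Pim1-/- cells the log2 fold change was 0.10 (SE 0.09, adjusted p = 0.32) and the libraries overlapped. Without the second untreated Pim1-/- library it was -0.01.

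The size of these responses depended on how libraries were scaled, while under the 3 scalings compared Tmem176a had the highest value and Fxyd2 the lowest in both genotypes. With TPM scaling Tmem176a still rose in WT (log2 fold change 1.32) and Pim1-/- cells (1.27), whereas Tmem176b, at 0.73 and 0.84, no longer passed the 2-fold limit, and Fxyd2 was called lower in WT cells (-1.07) and had a log2 fold change of -0.42 in Pim1-/- cells. Relative to the median gene under that scaling, Tmem176a was at 2.04 and 1.89, Tmem176b at 1.44 and 1.46, and Fxyd2 at -0.36 and 0.20 in WT and Pim1-/- cells. Quantile normalization gave 1.30 and 1.83 for Tmem176a, 0.44 and 1.27 for Tmem176b, and -1.07 and 0.32 for Fxyd2 in WT and Pim1-/- cells.

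The difference between the genotypes' responses is built from the contrasts that chose the genes and has no test. Response in Pim1-/- minus response in WT was 0.36 for Fxyd2, -0.37 for Tmem176a and -0.10 for Tmem176b on the log2(FPKM + 1) scale. The added 1 FPKM takes up more of the low Pim1-/- values, and the folds of the means, 4.44 against 4.17 for Tmem176a and 2.92 against 2.90 for Tmem176b, lay closer together.

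**Figure D2:**
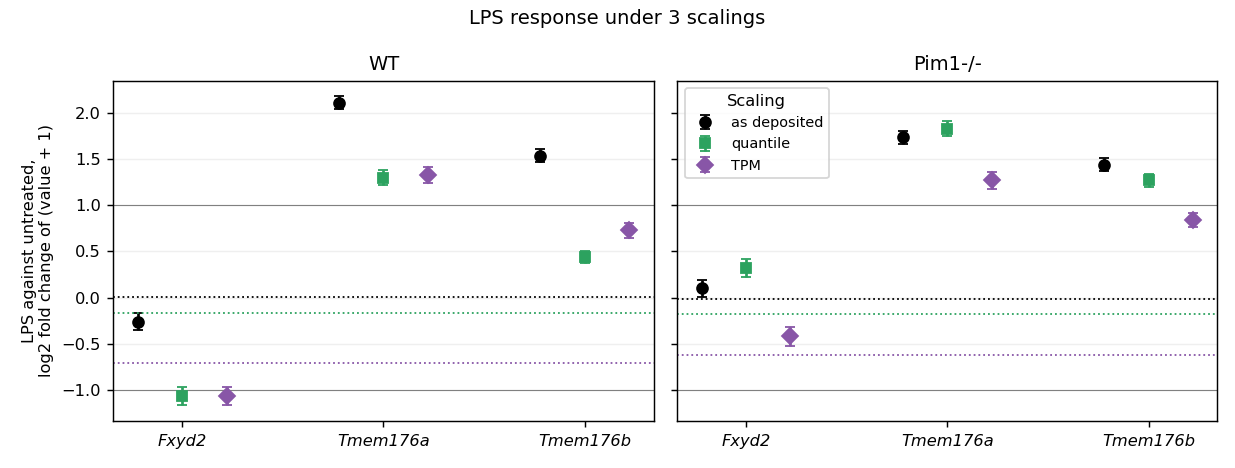
Log2 fold change of LPS-treated against untreated libraries for each gene, with its SE as bars, in WT (left) and Pim1-/- cells (right) under the deposited scaling, quantile normalization and TPM scaling. Dotted lines mark the median of all genes tested under the scaling of the same colour and grey lines a 2-fold change; the values of Tmem176a stay above the upper grey line under all 3 scalings, while those of Fxyd2 in Pim1-/- cells are on both sides of 0.

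The ratio of the Tmem176 genes within a library is not changed by scaling a library with a single factor, as TPM scaling does, while quantile normalization does change it. Tmem176b stood at 2.75 ± 0.13 times Tmem176a in untreated WT and 1.81 ± 0.02 times in LPS-treated WT libraries, and at 3.23 ± 0.21 and 2.24 ± 0.23 times in the corresponding Pim1-/- libraries (SD, n = 3). The ratio was lower after LPS in both genotypes, by a log2 difference of -0.60 in WT and -0.53 in Pim1-/- cells, and LPS-treated and untreated libraries of a genotype did not overlap. An exact permutation test of the treatment labels within each genotype, two-sided, gave p = 0.005, the smallest value its 400 arrangements allow. Tmem176a therefore rose by more than Tmem176b. Fxyd2 stood at 0.767 ± 0.049 times Tmem176b in untreated WT and 0.218 ± 0.005 times in LPS-treated WT libraries, and at 0.249 ± 0.066 and 0.0935 ± 0.0146 times in Pim1-/- libraries.

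**Figure D3:**
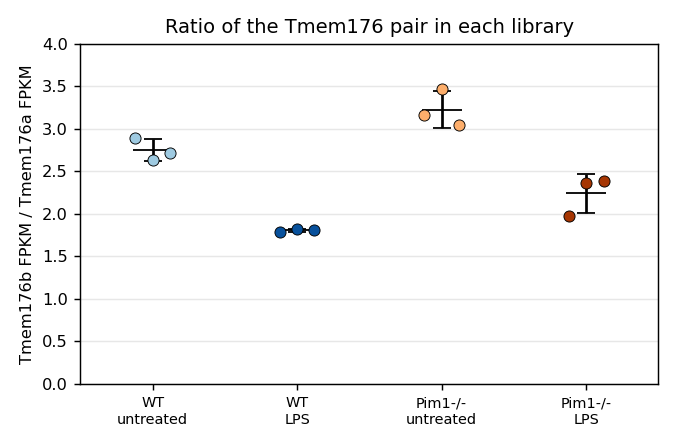
Tmem176b FPKM divided by Tmem176a FPKM in each library, with the mean and SD of each group in black. The ratio lies between 2.63 and 3.47 in the 6 untreated libraries and between 1.79 and 2.38 in the 6 LPS-treated ones.

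Across the 12 libraries Tmem176a and Tmem176b followed each other closely, with Pearson's r of 0.994 on log2(FPKM + 1), 0.999 within the 6 WT and 0.993 within the 6 Pim1-/- libraries. Fxyd2 had r = 0.839 with Tmem176a and 0.887 with Tmem176b over all 12 libraries, but -0.916 and -0.906 within WT and 0.349 and 0.289 within Pim1-/- libraries. These values are descriptions, since libraries of a group share genotype and treatment. Over all 12 libraries the 3 genes shared the low Pim1-/- level, and within WT libraries Fxyd2 was lower and the pair higher after LPS.

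Among 6192 genes whose log2(FPKM + 1) ranged over at least 1 across the libraries, the 5 most like Fxyd2 were Apoc2, Apoe, Pltp, Cyp4f18 and Trf, with r from 0.991 to 0.999. Apoc2, an activator of lipoprotein lipase, was at 68.6 FPKM in untreated WT, 8.71 in untreated Pim1-/-, 60.8 in LPS-treated WT and 9 in LPS-treated Pim1-/- cells. Apoe, the apolipoprotein that macrophages secrete with cholesterol, was at 6409, 1275, 6239 and 1399 FPKM in that order. Pltp, a phospholipid transfer protein, was at 348.3, 71.9, 304.5 and 71.1 FPKM, and Trf, transferrin, at 161.6, 36.2, 122.8 and 32.6 FPKM. Fxyd2 shared with these genes a lower level in Pim1-/- than in WT cells and little movement with LPS. The levels themselves differed, and Apoe in Pim1-/- cells was above Fxyd2 in WT cells. The fold between genotypes was larger for Fxyd2, which was chosen for that fold, so nothing is read from it.

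The 5 genes most like Tmem176b were Emr4, Ms4a6b, Ndst2, Pde1b and Ehd4 (r from 0.994 to 0.997), and those most like Tmem176a were Limd2, Ehd4, Trpc4ap, Tmem176b and Ndst2 (0.993 to 0.998). Ms4a6b, which encodes another protein with several membrane spans, was at 51.3 FPKM in untreated WT, 6.51 in untreated Pim1-/-, 155.0 in LPS-treated WT and 16.9 in LPS-treated Pim1-/- cells. Ehd4, an endocytic trafficking protein, was at 130.5, 56.5, 213.4 and 92.6 FPKM in the same order, and Emr4 was at most near the filter, at 1.76, 0.07, 3.44 and 0.56 FPKM. Tmem176a ranked 6 among the genes most like Tmem176b, and Tmem176b 4 among those most like Tmem176a. These lists changed with scaling, since only 1 of the 5 genes of each list returned with TPM scaling, and 2, 0 and 2 returned with quantile normalization for Fxyd2, Tmem176a and Tmem176b.

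**Figure D4:**
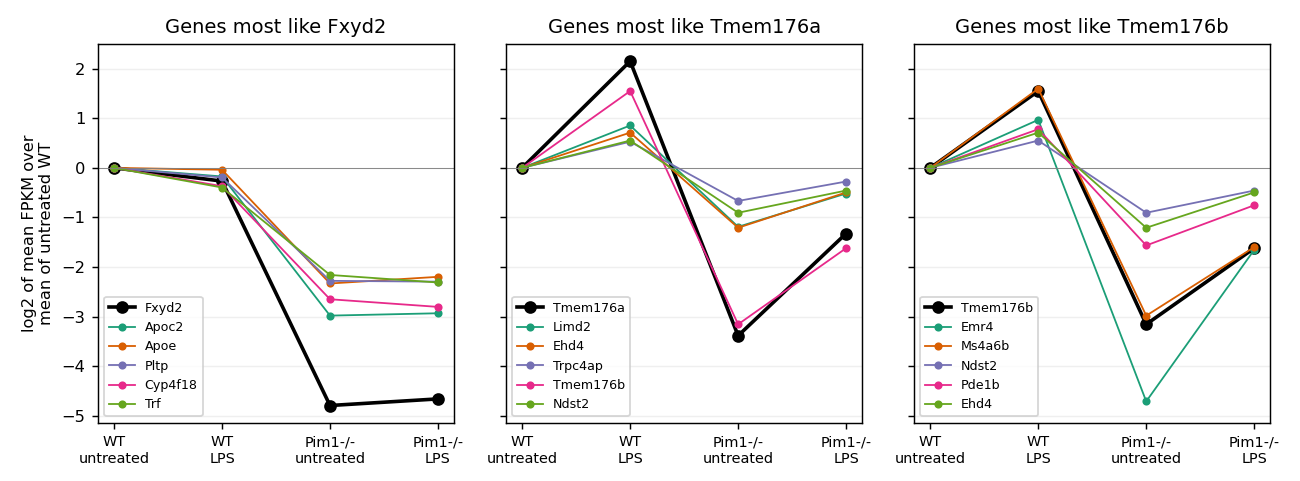
Log2 of each group's mean FPKM over the mean of untreated WT, for each member (black) and the 5 genes with the highest Pearson r to it over the 12 libraries (colours). Lines mostly share their shape within a panel and differ in size. The fall from WT to Pim1-/- is larger for Fxyd2, which was chosen for it, than for its 5 genes. Emr4, a gene of low level, differs in shape, with a rise after LPS of 1.96-fold in WT and 8.30-fold in Pim1-/- cells.

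Genes next to the members gave little to compare. Of the 4 genes with values on each side of the Tmem176 locus, Gimap7, Gimap1, Gimap5 and Gimap3 on one side and Aoc1, 1600015I10Rik, Doxl2 and Svs1 on the other, none reached 1 FPKM in 3 libraries. Around Fxyd2, 3 of 8 did. Il10ra, the ligand-binding chain of the IL-10 receptor, was called lower in Pim1-/- cells in both treatments, with 60.8 ± 1.58 against 19.3 ± 1.51 FPKM untreated (log2 fold change -1.61, SE 0.05) and 143.6 ± 4.53 against 63.0 ± 3.53 FPKM after LPS (-1.18, SE 0.05). With TPM scaling the value after LPS was -0.98 and no longer a call. Cep164 (-0.14 and 0.21) and Bace1 (-0.43 and -0.21) did not pass the 2-fold limit, and Fxyd6, the nearest gene, was at no more than 0.0284 FPKM in any library.

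Fxyd2 was one of 2 FXYD genes past the filter. Fxyd5 (dysadherin), which also binds the pump, was at 600.4 ± 2.37 FPKM in untreated WT, 797.1 ± 5.61 in untreated Pim1-/-, 607.7 ± 22.8 in LPS-treated WT and 746.1 ± 37.8 in LPS-treated Pim1-/- cells. Its log2 difference between genotypes was 0.41 untreated and 0.30 after LPS (SE 0.04), above 0 in both and under the 2-fold limit, where Fxyd2 lay at -4.29 and -3.93. Fxyd3 and Fxyd4 were listed at 0 in every library, and Fxyd1, Fxyd6 and Fxyd7 stayed under 1 FPKM. Per length, Fxyd5 was more abundant than Fxyd2 in every library.

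Genes of the pump that Fxyd2 binds differed less than 2-fold between genotypes. Of 11 genes for subunits of the Na,K-ATPase and proteins that interact with it, 4 passed the filter and 0 were called with limma, where 7.78% of all genes were called in untreated cells and 8.66% after LPS. With an unadjusted p under 0.05 and no limit on the fold, 4 of the 4 differed in untreated cells and 2 after LPS, where 76.2% and 78.6% of all genes did. Atp1b3, the beta subunit that brings the pump to the membrane, was at 195.3 ± 7.01 and 168.3 ± 3.39 FPKM untreated and 458.6 ± 11.7 and 315.5 ± 7.33 FPKM after LPS, and LPS raised it in WT cells (log2 fold change 1.23, SE 0.04) with 0.90 in Pim1-/- cells, below the 2-fold limit. With TPM scaling Atp1b3 was at 0.42 in WT and 0.24 in Pim1-/- cells and was called in neither. Nkain1, which interacts with the pump, was called lower after LPS in Pim1-/- cells (-1.26, SE 0.05) with -0.64 in WT cells, and in both genotypes with TPM scaling (-1.93 and -1.41).

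**Figure D5:**
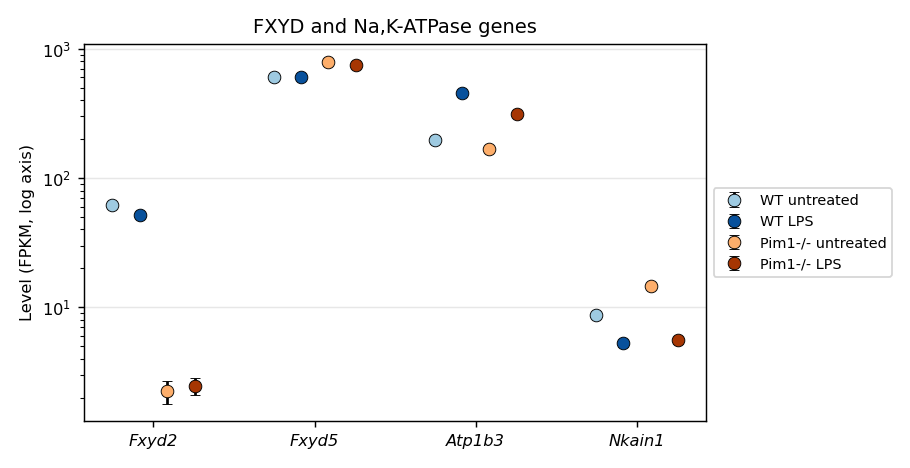
Mean FPKM on a log axis with SD over 3 libraries, for Fxyd2, Fxyd5, Atp1b3 and Nkain1. Of these 4 genes, Fxyd2 alone lies more than 2-fold apart between the genotypes, and most SD bars are smaller than the points.

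Further genes of sodium and cation transport were described by their lists. Of 17 sodium, chloride-coupled and calcium exchange genes 14 were tested, with a median log2 difference between genotypes of -0.41 untreated and -0.35 after LPS, against -0.05 and -0.03 over all genes. In untreated Pim1-/- cells 2 were called lower, among them Slc9a9, an endosomal sodium/proton exchanger (-1.52, SE 0.06), and none higher, where 4.40% of all genes were called higher. After LPS 2 were called lower, among them Slc12a4, a potassium/chloride cotransporter (-1.13, SE 0.05), and none higher, where 3.51% of all genes were called higher. With TPM scaling Slc12a4 was at -0.93 and no longer a call. In response to LPS, 4 were called higher and 1 lower in WT cells and 3 higher and 1 lower in Pim1-/- cells, among them Slc4a7, a sodium/bicarbonate cotransporter, at 2.62 and 2.43. With TPM scaling 2 were called higher and 5 lower in WT and 2 higher and 1 lower in Pim1-/- cells. LPS called 14.7% of all genes lower in WT and 10.4% in Pim1-/- cells. None of these genes reached the genotype differences of the members, which were chosen for theirs.

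Of 30 cation channel genes 27 were tested, with a median log2 difference between genotypes of -0.29 untreated and -0.25 after LPS. In untreated Pim1-/- cells 3 were called lower, namely P2rx4, an ATP-gated channel (-1.06, SE 0.04), Trpv4, an osmosensitive channel (-1.39, SE 0.07), and Kcnj10, an inwardly rectifying potassium channel (-1.16, SE 0.06). Kcnj10 was near the filter, at 1.44 ± 0.16 FPKM in untreated WT and 0.087 ± 0.016 in untreated Pim1-/- libraries. By its means it was 16.5-fold lower, which the log2(FPKM + 1) value understates. Kcnn4, a calcium-activated potassium channel, was called higher (1.04, SE 0.05). After LPS only Kcna3, a voltage-gated potassium channel, was called lower (-1.25, SE 0.07), and none higher. In response to LPS, 6 were called higher and 10 lower in WT cells, and 4 higher and 5 lower in Pim1-/- cells. With TPM scaling 4 were higher in each genotype, 14 lower in WT and 10 lower in Pim1-/- cells. Over all 4 lists, 46 genes other than the members were tested. Calls between genotypes were 5 lower and 1 higher untreated, and 3 lower and none higher after LPS. Of all genes tested, 3.37% were called lower and 4.40% higher untreated, and 5.15% lower and 3.51% higher after LPS.

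Marker genes were compared because the libraries are bulk RNA, in which fewer cells of a type and less RNA per cell cannot be told apart. All 10 macrophage markers were detected in every group. As deposited, all 10 had log2 differences between genotypes below 0 in both treatments. Their medians were -0.89 untreated and -0.88 after LPS, against -0.05 and -0.03 over all genes. With TPM scaling Cd14 (0.07) and Cd68 (0.01) were slightly above 0 after LPS, where the median of all genes was 0.13. Of the 10 markers, 4 were called lower in untreated cells, Csf1r (the M-CSF receptor, -1.59), Mertk (-1.57), Fcgr1 (-1.67) and Mrc1 (-1.46), and 3 after LPS. Their summed level, most of it Lyz2, was 27980 to 30030 FPKM in untreated WT, 14440 to 15350 in untreated Pim1-/-, 30860 to 31360 in LPS-treated WT and 15950 to 17810 in LPS-treated Pim1-/- libraries. The largest difference among these 10 macrophage markers was 3.43-fold untreated and 4.46-fold after LPS (both Fcgr1). The members, at 8.89-fold and more, were chosen for such differences, so nothing is read from their being larger.

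MHC class II genes and 10 further dendritic cell markers were listed because Tmem176 genes are known from dendritic cells. The 5 genes of the MHC class II list, which includes the regulator Ciita, were all called lower in untreated Pim1-/- cells and 3 after LPS. After LPS H2-Aa (-0.91) was lower but under the 2-fold limit. Ciita was higher in LPS-treated Pim1-/- cells, at 6.49 ± 0.49 against 4.40 ± 0.07 FPKM in WT (0.47), also under that limit. Summed levels of the 5 genes were 435.5 to 486.6 FPKM in untreated WT, 113.6 to 128.6 in untreated Pim1-/-, 848.5 to 893.9 in LPS-treated WT and 320.9 to 344.2 in LPS-treated Pim1-/- libraries. The other 10 markers summed to 6.34 to 7.16, 5.71 to 6.77, 8.86 to 9.12 and 7.15 to 7.35 FPKM in the same order, with 7 of them under 1 FPKM in every library. Among these, Itgax held most of the sum, and Batf3 was called lower in LPS-treated Pim1-/- cells, at 2.60 ± 0.17 FPKM in WT and 0.205 ± 0.088 in Pim1-/- libraries (log2 fold change -1.58). Genes of dividing cells moved the other way, as 10 of 10 were called higher in untreated Pim1-/- cells and 8 after LPS, with summed levels of 128.9 to 143.3, 788.1 to 872.1, 349.6 to 353.6 and 663.9 to 749.8 FPKM in the same order. The part of these shifts in the levels of Fxyd2, Tmem176a and Tmem176b was not tested.

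Most markers of other cells were at or near 0, with Il7r and Cd4 as exceptions in the lymphoid list. Of 41 markers of neutrophils, B cells, T, NK and innate lymphoid cells, mast cells and basophils, stromal cells and erythroid cells with values, 31 stayed under 1 FPKM in every library and 10 of these were listed at 0 throughout, among them Cd3e, Cd3g, Cd8a, Ncr1 and Il17a. Il17a is a product of the type 3 lymphoid cells in which Tmem176 genes are also expressed. Il7r was at 51.5 ± 1.65 FPKM in untreated WT, 68.0 ± 5.12 in untreated Pim1-/-, 16.5 ± 1.19 in LPS-treated WT and 38.9 ± 4.28 in LPS-treated Pim1-/- cells, and was called higher in Pim1-/- cells after LPS. Cd4 was at 4.96 ± 0.33, 0.432 ± 0.026, 2.57 ± 0.37 and 0.31 ± 0.06 FPKM in that order and was called lower in Pim1-/- cells in both treatments (-2.06 and -1.44). Of the 10 tested, 1 was called lower and none higher between genotypes untreated, and 3 lower and 1 higher after LPS.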

How the data were processed

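RNA-seq measured polyadenylated RNA of 12 BMDM libraries in 4 groups of 3, defined by genotype and LPS treatment in the labels. The authors prepared stranded TruSeq mRNA libraries and, per the submitters' processing notes, used bcl2fastq 2.20.0.422, cutadapt 1.18, TopHat2 2.0.13 and Cuffdiff 2.2.1 with genome mm10. The study's methods name a rat genome, but 99.5% of the gene names matched mouse symbols. The authors deposited 1 column per library, read here as FPKM from the tool and the values, since the unit is not written; neither annotation nor library normalization was stated. No column of another sample was used.

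Values were fitted as log2(FPKM + 1) with limma 3.58.1 (R 4.3.3), as 4 group means over all 12 libraries with a mean-variance trend, for genes reaching 1 FPKM in 3 or more libraries, and p-values were adjusted by Benjamini-Hochberg over 10581 genes. Fold changes on this scale understate changes of low genes. The pseudocount, thresholds (more than 2-fold, p under 0.05, adjusted p under 0.1) and gene lists, like the 3 members, were chosen with earlier results of these data known. FPKM holds no counts. In genes with 1 transcript, 77.4% of 3028 low values were whole multiples of what 1 fragment adds, with a tolerance of 0.1 (20% by chance), and fragments behind a value were estimated from that step, which cover counting error only. Between replicates Pearson's r across genes was 0.996 to 0.998.

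Named genes were the members, Pim1, the 5 genes of highest r to each member, 4 neighbours on each side of each locus, FXYD and Na,K-ATPase genes past the filter, called genes of 2 further lists, and markers; some genes that this rule names are not reported here. Promoter sequences came from RefSeq (GRCm38.p6), which matched the Tmem176 genes. Same-numbered libraries deviated together over 3646 genes of at least 10 FPKM in all libraries, with r of 0.33, 0.37 and 0.46 between untreated genotypes and 0.43, 0.54 and 0.68 between treatments of Pim1-/- cells, so the numbers pair these by the values, and not in the other comparisons (-0.10, 0.14 and 0.19; 0.02, 0.37 and 0.19). The fit was tested on simulated data. Alternatives covered pseudocount, filter, scaling, samples fitted, trend, replicate block and leaving out each library. Python 3.11.15, pandas 2.3.3, numpy 2.4.6, scipy 1.17.1 and matplotlib 3.10.9 were used.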

Additional observations from a re-analysis of the deposited data

Results flagged for a closer look

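The ion transport genes Kcnn4 and P2rx4 had LPS log2 fold changes of opposite sign in the 2 genotypes, with LPS-treated and untreated libraries not overlapping in either, as held for 90.4% (WT) and 83.8% (Pim1-/-) of all genes tested. Whether the responses differ was not tested, and none of the 4 changes passed the 2-fold limit. For Kcnn4 the log2 fold change in WT cells was 0.93, and that in Pim1-/- cells -0.26, a difference of -1.19. Kcnn4 was at 31.7, 61.3, 66.3 and 55.1 FPKM in untreated WT, LPS-treated WT, untreated Pim1-/- and LPS-treated Pim1-/- cells. For P2rx4 the values were -0.04 in WT and 0.58 in Pim1-/- cells, a difference of 0.62. In WT cells that value did not pass the test (SE 0.04, limma with Benjamini-Hochberg adjusted p = 0.30). With TPM scaling Kcnn4 was at 0.14 and -0.92, and P2rx4 at -0.85 and -0.08, below 0 in both genotypes. P2rx4 was at 133.8, 129.9, 63.8 and 95.7 FPKM in that order.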

How the results depend on the processing

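Libraries with the same replicate number were also fitted with a replicate block, which changed no call of a member and called 3686 genes for LPS in WT, 2649 for LPS in Pim1-/- cells, 824 between untreated genotypes and 915 after LPS. The genotype differences of the 3 members stayed below -2.6 on the log2 scale under every alternative run. In the order Fxyd2, Tmem176a, Tmem176b they were -4.84, -3.37 and -3.43 untreated and -3.45, -2.84 and -2.61 after LPS with quantile normalization. With a pseudocount of 0.1 they were -4.75, -3.34 and -3.14 untreated, and Fxyd2 -4.34 after LPS, where 1442 genes were called (725 lower, 717 higher) in place of 916 (545 lower, 371 higher). With TPM scaling, added after seeing the data, Fxyd2 was at -4.49 and Tmem176a at -3.13 untreated, and Tmem176a at -3.19 and Tmem176b at -2.93 after LPS.

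The LPS responses depended on scaling. Fxyd2 in WT was called lower at -1.07 with both quantile and TPM scaling. Tmem176b lost its call in WT at 0.44 with quantile and 0.73 with TPM scaling and in Pim1-/- cells at 0.84 with TPM scaling, where Fxyd2 reversed to -0.42. TPM scaling called 4079 genes lower and 1236 higher in WT, and 3146 lower and 1026 higher (4172 in all) in Pim1-/- cells, against 1556 and 2130, and 1103 and 1546, as deposited; between LPS-treated genotypes it called 377 lower and 610 higher. Quantile normalization called 1807 lower and 1644 higher in WT and 1352 and 1305 in Pim1-/- cells. These scalings move the median of all genes by their construction; no other cause was tested. Of the 5 genes most like Fxyd2, Tmem176a and Tmem176b, 2, 0 and 2 returned with quantile normalization and 1 of each with TPM scaling.

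Leaving out 1 library at a time moved the LPS response of Fxyd2 in Pim1-/- cells between -0.01 (without untreated Pim1-/- replicate 2, a change of sign) and 0.19, and 4 to 5, 3 to 5 and 3 to 4 of the most alike genes returned, with 3 for Tmem176a without LPS-treated Pim1-/- replicate 3 and 3 for Tmem176b without replicate 2. Low depth limits the values of Fxyd2 and Tmem176a in Pim1-/- libraries, which rest on as few as 16.4 and 11.4 estimated fragments, with counting variation of up to 24.7% and 29.7%, if the shortest transcripts are assumed.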
